A study of Mus musculus with 24 samples.

Results

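The comparison described here is that of IFNγ-treated with control X-GFP–negative cells at day 7 of the reprogramming of mouse neural precursor cells (NPCs) into induced pluripotent stem cells (iPSCs). It rests on 4 libraries, 2 from each arm, and on every gene whose normalized count averaged more than 10 over them. These were 15531 of the 37315 genes in the table, of which 13901 (89.5%) were protein coding. The gene nearest to the limit on the inner side was Gm25989, with a mean of 10.0048, and the nearest on the outer side was Snord88c, with a mean of 9.9951.

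The cells came from the PaX line, a female embryonic stem cell (ESC) line from a cross of Mus musculus and Mus castaneus. It carries a GFP reporter in Hprt on the musculus X chromosome (X mus), a doxycycline-inducible cassette of c-Myc, Klf4, Oct4 and Sox2 with the transactivator in the Sp3 locus, and a red fluorescent reporter driven by the Nanog promoter. A truncated Tsix allele makes X mus the X chromosome that is silenced when these ESCs become NPCs, so GFP is lost in NPCs and returns as X mus is reactivated. The NPCs of both arms were reprogrammed with doxycycline on irradiated male embryonic fibroblasts, in serum and LIF with ascorbic acid. The treated arm received IFNγ at 10 ng/ml from day 0 to day 5, and the control arm received none. At day 7, 2 days after the cytokine had been withdrawn, cells bearing the surface sugar SSEA1, an early sign of reprogramming, were enriched and sorted by GFP into negative, medium and high cells. The X-GFP–negative cells had therefore gained SSEA1 but still kept X mus silent. All cells descend from 1 ESC line, and reads of the cassette cannot be told apart from those of the endogenous Myc, Klf4, Pou5f1 and Sox2 genes.

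IFNγ binds a receptor made of IFNGR1 and IFNGR2, which signals through the kinases JAK1 and JAK2 to GAS elements in target promoters. Among the genes induced are those of the transcription factor IRF1, which binds ISRE elements, and SOCS1, which shuts the receptor down. The best known targets are the GTPases that attack intracellular parasites, and the genes that load peptides on MHC class I molecules.

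The 4 libraries held 25966420 to 28683574 reads assigned to genes, recovered from the normalized counts. The 2 libraries of an arm differed by more than the reads alone would give. The chi-square of their counts, divided by its degrees of freedom, was 6.04 in the control and 6.72 with IFNγ. The summed normalized counts of the IFNγ-treated libraries were 89.7% of those of the control libraries. Rescaling all 4 libraries to the same total raised the median log2 fold change over the 15531 genes from 0.016 to 0.17, a shift of 0.16, so small changes have to be read against that shift. The p-values come from limma on log2(normalized count + 1) with Benjamini-Hochberg adjustment over all genes tested, and a gene was called below an adjusted p of 0.1.

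IFNγ-treated X-GFP–negative cells differed from control cells in most of the genes tested. Many IFNγ target genes, genes of the primitive streak and endoderm, Wnt output genes and most naive pluripotency genes were higher. Keratins, desmosome genes, epithelial junction genes, EGF receptor ligands and CDK inhibitors were lower. Of 15531 genes, 4836 (31.1%) were higher and 4781 (30.8%) lower, so that 61.9% were called in either direction. At least 2-fold changes were called for 1169 genes (7.53%) upward and 1098 genes (7.07%) downward. With equal totals, 6727 genes (43.3%) were higher and 3432 (22.1%) lower, which moved the share of upward calls from 50.3% to 66.2%. The 3432 genes called lower with equal totals were all lower before rescaling, the 4836 genes called higher before rescaling all remained higher, and 0 genes switched sign among the calls. An exact permutation test of 2 against 2 libraries cannot give a p below 0.333, so the calls rest on the spread that limma pools over genes.

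**Figure D1:**
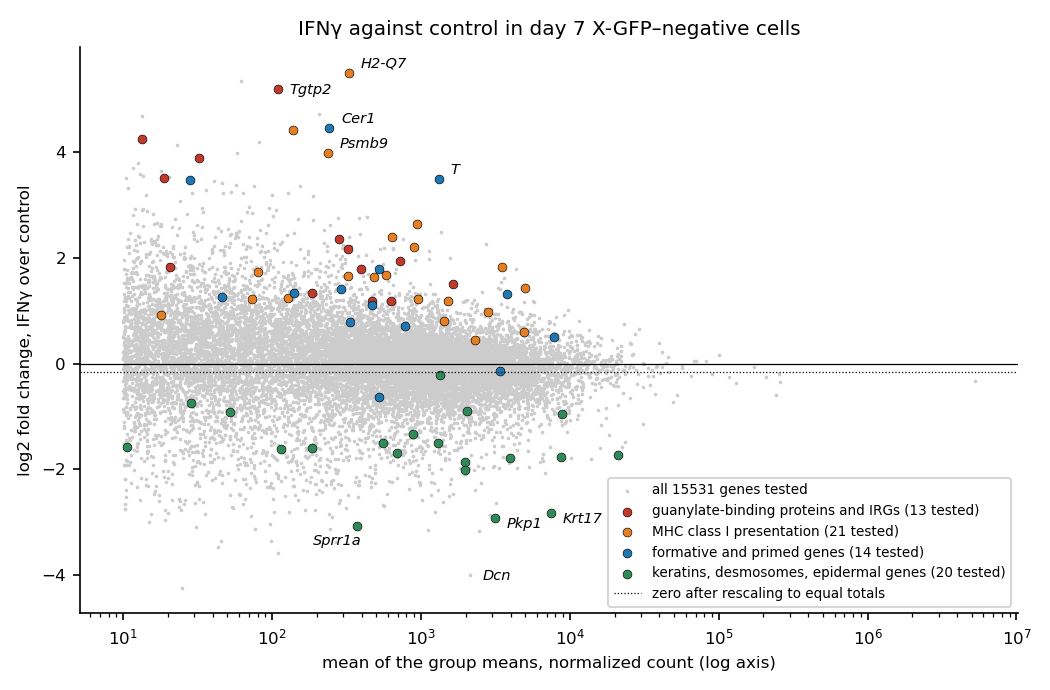
Log2 fold change of IFNγ over control (vertical axis) against the mean normalized count (horizontal axis, log scale) for the 15531 genes tested in day 7 X-GFP–negative cells, with 4 gene lists in color and the dotted line at the position that zero takes after rescaling to equal totals. The GTPases, MHC class I genes and most formative genes lie above zero and the 20 epidermal genes below it, with H2-Q7 at 5.51 and Dcn at -4.01.

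The 10 largest increases among abundant genes, by a fixed rule, belonged to H2-Q7, Slc44a5, Tgtp2, Aplnr, Cer1, H2-Q6, Lhx1, Psmb9, Samd3 and T. H2-Q7 (ENSMUSG00000060550, chr17:35439155-35443773, GRCm38), a nonclassical MHC class I gene, had 9.87 and 17.2 in the control and 700.2 and 580.0 with IFNγ normalized counts. Its log2 fold change was 5.51 (SE 0.25, adjusted p = 1.04e-06). H2-Q6 is nearly identical to H2-Q7, so the division of reads between them is uncertain, and its log2 fold change was 4.42. Slc44a5, a member of the choline transporter-like family, had 4 control reads and 237 IFNγ reads, a ratio of 62.7 with a 95% interval from 24.2 to 232 for counting error only. Aplnr, the receptor of apelin and of the gastrulation hormone ELABELA, had 11 and 17.2 in the control and 325 and 468 with IFNγ, a log2 fold change of 4.73. In each of these genes both treated libraries lay above both control libraries, as the rule asked. Over all genes tested the arms did not overlap in 79.1%. In NPCs Aplnr had 236 and 222 normalized counts, Slc44a5 228 and 268 and Samd3 126 and 157, while Tgtp2 had 0 and Cer1 at most 2.64.

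The 10 largest decreases belonged to Dcn, Dsg1b, Vsig8, Klk12, Alox12b, Birc7, Il1a, Sprr1a, Cd7 and Pkp1. Dcn (ENSMUSG00000019929, chr10:97479609-97518143), which encodes the matrix proteoglycan decorin, had 4299.7 and 3801 in the control and 219 and 287 with IFNγ normalized counts, a log2 fold change of -4.01 (SE 0.13, adjusted p = 4.7e-07). Alox12b (ENSMUSG00000032807, chr11:69156989-69169792), a lipoxygenase needed for the water barrier of the skin, had 4410.5 and 4428 in the control and 427 and 561 with IFNγ, a log2 fold change of -3.17 (SE 0.11, adjusted p = 6.18e-07). Dsg1b and Pkp1 encode proteins of desmosomes, and Sprr1a one of the cornified envelope of skin. 

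**Figure D2:**
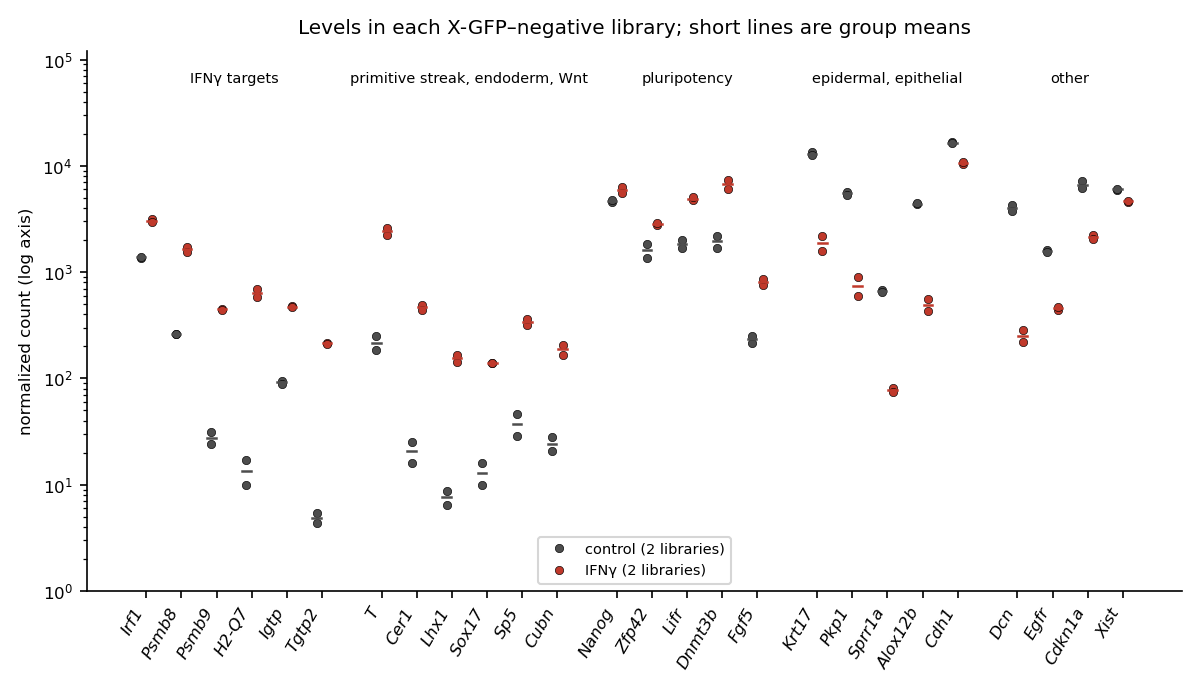
Normalized count (log axis) of 26 genes in the 2 control and 2 IFNγ libraries of X-GFP–negative cells, with short lines at the group means. The 2 libraries of an arm lie close together next to the distance between the arms for H2-Q7, Tgtp2, T, Cer1 and Dcn, while for Nanog, Cdh1 and Xist the arms are separated by less than 1 log2 unit.

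Many IFNγ target genes were higher 2 days after IFNγ was withdrawn. All 13 tested members of the guanylate-binding protein and immunity-related GTPase families were higher, each at least 2-fold, with a median log2 fold change of 1.95 against 0.016 over all genes. Of these, 5 had a control mean that was not above the filter of 10 and passed through the treated libraries, so they had to be higher, and the count rests on the other 8 (8 of 8 higher). Irgm1, Irgm2 and Igtp, GTPases that control the loading of their partners on parasite vacuoles, had log2 fold changes of 1.95, 2.16 and 2.35. Igtp had 94.4 and 89.1 in the control and 480.0 and 466 with IFNγ normalized counts. Tgtp2, another immunity-related GTPase gene, had 4.39 and 5.36 in the control and 217 and 209.8 with IFNγ. Its log2 fold change was 5.19 (SE 0.25, limma adjusted p = 1.33e-06), with reads that may be shared with its near copy Tgtp1. The smallest increases in this list were those of the guanylate-binding protein genes Gbp4 and Gbp7, at 1.19 and 1.19. Gbp2b and Gbp11 were below the filter. The list was in part chosen by the study, so its direction is not independent evidence.

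All 21 members tested of MHC class I presentation and the immunoproteasome were higher, 16 of them at least 2-fold, with a median log2 fold change of 1.64. Psmb8 and Psmb9 encode catalytic subunits that replace their constitutive counterparts in the immunoproteasome. Psmb8 had 260.0 and 262 in the control and 1717 and 1556 with IFNγ normalized counts, a log2 fold change of 2.64 (SE 0.091, adjusted p = 4.7e-07), and Psmb9 had 24.1 and 31.1 in the control and 453 and 442 with IFNγ, a log2 fold change of 3.98 (SE 0.18, adjusted p = 1.04e-06). Nlrc5, the transactivator of class I genes, had 135 and 175 in the control and 476 and 503 with IFNγ, a log2 fold change of 1.66 (SE 0.14, adjusted p = 2.03e-05). The peptide transporter gene Tap1 had a log2 fold change of 2.21, and the classical class I genes H2-K1 and H2-D1 had 1.43 and 1.83. B2m, the light chain shared by all class I molecules, rose by less than the list median, with 4089 and 3752 in the control and 6072 and 5747 with IFNγ normalized counts and a log2 fold change of 0.59 (SE 0.067, adjusted p = 9.3e-05).

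Of the MHC class II list, 3 of 6 members tested were higher and 0 lower. Of the 4 whose control mean was above the filter 1 was higher, where 31.1% of all genes were higher. H2-Eb1 had 56 and 65.4 in the control and 189 and 149 with IFNγ normalized counts, a log2 fold change of 1.46, and Cd74, the invariant chain, 1.62. With equal totals 5 of the 6 were higher, where 43.3% of all genes were. The 6 include 2 that passed the filter through the treated libraries. Among 23 antiviral interferon-stimulated genes tested, 18 were higher, 9 of them at least 2-fold, and 3 were lower, with a median of 0.83. Of the 22 with a control mean above the filter 17 were higher. Ifitm3, which blocks the entry of viruses through endosomes, had 381 and 460.3 in the control and 1735 and 1953 with IFNγ normalized counts, a log2 fold change of 2.13 (SE 0.11, adjusted p = 1.55e-06). Rtp4, Oasl2 and Zbp1 had log2 fold changes of 2.11, 1.61 and 1.59, and Ifit3, Ifi44 and Mx1 were below the filter. The 3 lower genes were Rsad2 at -0.79, Xaf1 at -0.63 and Samhd1 at -0.42.

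The signaling genes did not move one way, and over all genes 31.1% were higher and 30.8% lower. In the list of the receptor and its signaling and feedback genes, chosen in part by the study, 3 of 11 were higher and 4 lower, with a median log2 fold change of 0.038. Socs1 was higher, with 86.7 and 52.6 in the control and 179 and 127 with IFNγ normalized counts, a log2 fold change of 1.15 (SE 0.26, adjusted p = 0.00496). Ifngr1, the ligand-binding chain of the receptor, was lower, with 696 and 698 in the control and 404 and 476 with IFNγ, a log2 fold change of -0.67 (SE 0.11, adjusted p = 0.000656). Jak1 and Jak2 were lower too, at -0.53 and -0.65, and Ifngr2 had 0.038 (adjusted p = 0.865, limma). Among the 7 interferon regulatory factors, in part chosen by the study, 3 were higher and 3 lower, and of the 6 whose control mean was above the filter 2 were higher. Irf1 had 1365 and 1400.2 in the control and 3152 and 2951 with IFNγ normalized counts, a log2 fold change of 1.14 (SE 0.069, adjusted p = 3.58e-06), while Irf2, a repressor that competes with it, had -1.02. Of 11 chemokines and ligands tested, 4 were higher and 4 lower, among them Cxcl12 at 1.47 and Ccl7 at -1.37, and Cxcl10, a standard IFNγ target, had 0.12 (adjusted p = 0.814, limma).

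Promoter sequences of the persisting target genes are shown here because letters of the ISRE and GAS kinds were searched in them. The promoters are those of RefSeq on GRCm38.p6, taken as the 250 bases before a gene's start, and the letters searched on both strands were GAAANNGAAA, the core of an ISRE, and TTCNNNGAA, a GAS. The 2 patterns can overlap. The windows below are written 5′ to 3′ on the gene's own strand, with the letters that matched in capitals. Igtp, Tgtp2, Gbp2 and B2m are shown for GAAANNGAAA, Gbp2 with the letters on the opposite strand, and Psmb8 and Irf1 for TTCNNNGAA.
Igtp, chr11:58199514-58199539, plus strand: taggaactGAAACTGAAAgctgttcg
Tgtp2, chr11:49064265-49064290, minus strand: caggaatcGAAACCGAAAcctactct
Gbp2, chr3:142620596-142620621, plus strand: tcttttagTTTCACTTTCactgtctt
B2m, chr2:122147540-122147565, plus strand: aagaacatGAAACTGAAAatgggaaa
Psmb8, chr17:34198090-34198114, plus strand: ctccgctgTTCCCAGAAgatgcccc
Irf1, chr11:53769916-53769940, plus strand: agcctgatTTCCCCGAAatgatgag

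GAAANNGAAA was found in 3.46% of 27025 genes with a promoter sequence and in 2.96% of the 11149 such genes among those tested here. It was found in 8 of the 9 GTPase genes with a promoter sequence, in 3 of 17 MHC class I genes, in 5 of 16 antiviral genes and in 0 of 8 epidermal genes. TTCNNNGAA was found in 8.13% of all genes with a sequence and 7.02% of those tested, and in 5 of 9, 2 of 17, 5 of 16 and 0 of 8 genes of the same lists. The mean number of promoters per gene was 1.11 in the GTPase list and 1.22 over all genes. A match is a description of letters and not evidence of binding, and several GTPase genes are near copies of each other.

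The genes that IFNγ had raised at day 2 were followed into the X-GFP–negative cells. The list held 152 genes with a log2 fold change of at least 2 and an adjusted p below 0.1 at day 2, where 5.03% of 15697 genes were called higher. In X-GFP–negative cells 96 of the 152 passed the filter on low counts, 75 of them were higher, 7 lower and 14 were not called, with a median log2 fold change of 1.27. A gene that passes the filter only through its treated libraries had to be higher. The share of higher genes and the median therefore describe those 96 and not the whole list. At day 5, the last day of treatment, 86 of the 113 members tested were higher and 0 lower, with a median of 2.33. Over the 15133 genes tested at day 5, 1.65% were called higher and 0.535% lower. The same limit of the filter holds at day 5, so these values describe the 113 members tested. H2-Q7 went from a log2 fold change of 7.70 at day 2 to 5.51 at day 5 and 5.51 at day 7, Psmb8 from 5.45 to 3.83 and 2.64, and Irf1 from 4.37 to 1.88 and 1.14.

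Some genes of the day 2 list were lower in treated X-GFP–negative cells. Nos2, the inducible nitric oxide synthase, had a log2 fold change of 2.45 at day 2 and 0.93 at day 5. In X-GFP–negative cells it had 520.0 and 464 in the control and 79.5 and 82.2 with IFNγ normalized counts, a log2 fold change of -2.59 (SE 0.13, adjusted p = 1.55e-06). The other members lower at least 2-fold were Il12rb1, a chain of the interleukin 12 receptor, at -1.51 and Ly6c1 at -1.15. The remaining lower members were Tnfaip2 at -0.97, Cxcl16 at -0.97, the complement protease gene C1s1 at -0.57 and Ifi204 at -0.56. GAAANNGAAA was found for 18 of the 52 higher genes with a promoter sequence, which had 1.1 promoters a gene on average. Of the other genes it was found for 1 of 12, which had 1.4. The higher genes include members that passed the filter through their treated libraries.

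**Figure D3:**
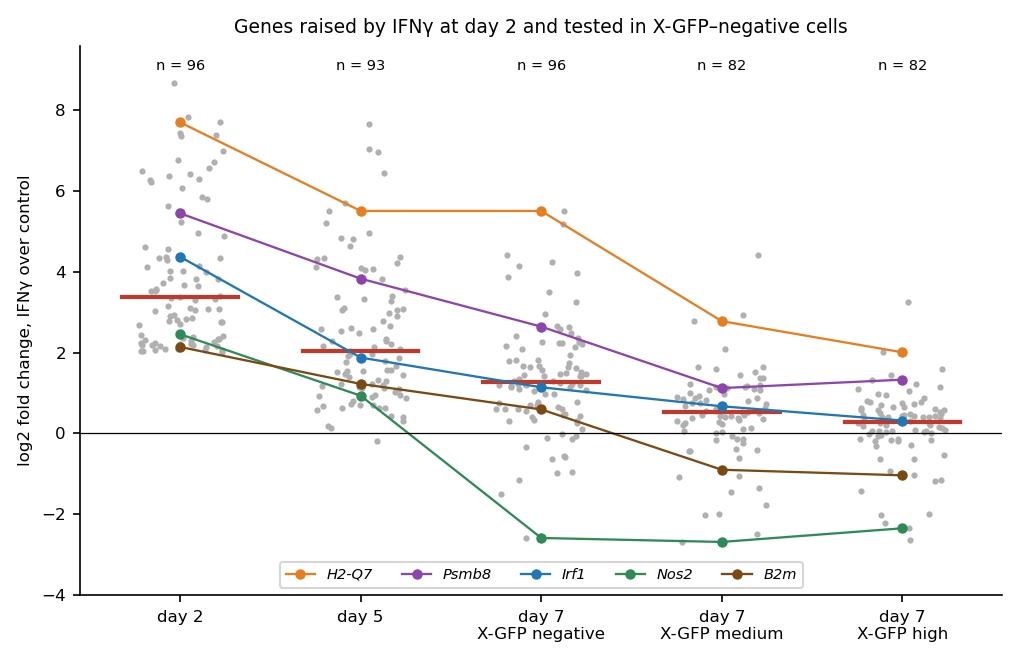
Log2 fold change of IFNγ over control (vertical axis) at day 2, day 5 and in the 3 day 7 populations for the members of the day 2 list that were tested in X-GFP–negative cells, 1 point a gene, with the median in red. H2-Q7 and Psmb8 stay above zero in all comparisons, whereas Nos2 goes from 2.45 at day 2 to below zero in all day 7 populations.

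Genes of the primitive streak and of early endoderm were higher with IFNγ. Of 14 formative and primed genes tested, 12 were higher, 9 of them at least 2-fold, and 1, Lef1, was lower at -0.63, with a median log2 fold change of 1.29. T (brachyury, ENSMUSG00000062327, chr17:8434423-8442496), which marks the primitive streak, had 251 and 183 in the control and 2237 and 2620.1 with IFNγ normalized counts, a log2 fold change of 3.49 (SE 0.14, adjusted p = 9.03e-07). Cer1, a secreted inhibitor of Nodal and Wnt made by anterior endoderm, had 25.2 and 16.1 in the control and 493 and 438 with IFNγ, a log2 fold change of 4.46 (SE 0.22, adjusted p = 1.43e-06). Lhx1, a homeobox gene of the streak and node, had 8.78 and 6.44 in the control and 144 and 167 with IFNγ, a log2 fold change of 4.19. Fgf5, the usual marker of the formative epiblast, had 215 and 251 in the control and 765 and 859 with IFNγ, a log2 fold change of 1.80 (SE 0.12, adjusted p = 4.72e-06). Otx2 had -0.15 (adjusted p = 0.21, limma). Of the 13 members whose control mean was above the filter 11 were higher.

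Several of these genes were also abundant in the NPCs from which reprogramming started. T had 1400.2 and 2241 normalized counts in NPCs, against 2237 and 2620.1 in the treated X-GFP–negative cells, and Lhx1 had 224 and 144 in NPCs. Cer1 and Fgf5 had at most 2.64 and 5.27 in an NPC library. The part of NPC expression in these changes was not tested.

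Of 11 primitive endoderm genes tested 8 were higher, all at least 2-fold, and Sparc was lower at -0.32, with a median of 1.16. Sox17, a factor of both primitive and definitive endoderm, had 9.87 and 16.1 in the control and 139.6 and 139.6 with IFNγ normalized counts, a log2 fold change of 3.37 (SE 0.27, adjusted p = 1.5e-05). Cubn, an endocytic receptor of visceral endoderm, Foxq1 and Pdgfra had log2 fold changes of 2.90, 2.85 and 2.24. Gata4, an early factor of this lineage, had 0.13 (adjusted p = 0.383, limma), and Gata6 1.16. Among 13 Wnt output genes 8 were higher, 7 of them at least 2-fold, and 2 lower, with a median of 1.71. Of the 12 with a control mean above the filter 7 were higher. Sp5, a direct target of Wnt signaling, had 46.1 and 29 in the control and 320.0 and 360.3 with IFNγ, a log2 fold change of 3.18 (SE 0.22, adjusted p = 6.77e-06). Dkk1 and Nkd1, inhibitors that Wnt induces, had 2.97 and 1.93, while the ligand gene Wnt4 was lower at -2.05. In NPCs Sp5 had 939 and 622 normalized counts, Dkk1 280.0 and 276 and Nkd1 2705 and 2508. Cubn had 105 and 182, Pdgfra 258 and 416 and Foxq1 49.6 and 38.7 in NPCs, while Sox17 had at most 1.76.

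Mesenchymal genes were called in both directions. Of 13 tested 5 were higher and 2 lower, with a median of 0.23, where 31.1% of all genes were higher and 30.8% lower. With equal totals 6 were higher and 2 lower, where 43.3% of all genes were higher and 22.1% lower. Cdh2, which encodes N-cadherin, had 99.8 and 96.6 in the control and 593 and 756 with IFNγ normalized counts, a log2 fold change of 2.76 (SE 0.14, adjusted p = 1.62e-06). Vim, which encodes vimentin, had 1007 and 874 in the control and 4339.6 and 4672 with IFNγ, a log2 fold change of 2.26 (SE 0.084, adjusted p = 7.09e-07). Both were more abundant in NPCs, with 8250.4 and 7845 normalized counts for Cdh2 and 37743 and 43344 for Vim. Zeb1 and Zeb2, repressors of Cdh1, had 2.03 and 1.97. Their normalized counts in NPCs were 3393 and 2796 for Zeb1 and 5623 and 5570 for Zeb2. The lower members were Cd44 at -1.56 and S100a4 at -1.12, and Twist1 had -0.31 (adjusted p = 0.43, limma).

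Keratins, desmosomes and epidermal genes were lower with IFNγ. All 20 tested were lower, 15 of them at least 2-fold and 1 of them with a treated mean under the filter, with a median log2 fold change of -1.61, and 18 were called lower with equal totals. Krt17, a keratin of activated epidermis, had 13436 and 12669 in the control and 1565 and 2175 with IFNγ normalized counts, a log2 fold change of -2.82 (SE 0.13, adjusted p = 1.04e-06). Pkp1, which links desmosomes to keratin, had 5716 and 5349.6 in the control and 594 and 895 with IFNγ, a log2 fold change of -2.92 (SE 0.15, adjusted p = 1.82e-06). Sprr1a had 685 and 654 in the control and 81.6 and 75.2 with IFNγ, a log2 fold change of -3.08. Trp63, the master factor of stratified epithelium, was below the filter in both arms.

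All 16 epithelial genes tested were lower as well, 7 of them at least 2-fold and also all 16 with equal totals, with a median of -0.96. The simple-epithelium keratins Krt8 and Krt19 had log2 fold changes of -1.60 and -1.85, and the tight junction gene Ocln -1.35. Cdh1, which encodes E-cadherin, had 16618 and 16399 in the control and 10451 and 10956 with IFNγ normalized counts, a log2 fold change of -0.63 (SE 0.056, adjusted p = 2.46e-05). Of 20 integrins and focal adhesion genes, in part chosen by the study, 4 were higher and 11 lower, with Cav1 at -2.46 and Itgb4, the integrin of hemidesmosomes, at -1.78. Among 13 trophoblast genes 4 were higher and 5 lower, among the latter Elf5 at -2.42 and Krt7 at -1.34. Of the 11 whose control mean was above the filter 3 were higher.

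Markers of other cells moved in part with these lists. Of 12 fibroblast markers tested 4 were higher and 3 lower, and their summed normalized counts were 10297 to 11895 in the control and 3728 to 3741 with IFNγ. The lower markers were Dcn, Fbln2, which had 5384 and 4403 in the control and 1214 and 1276 with IFNγ, and Mmp2 at -0.29. Col1a1, a defining collagen gene of fibroblasts, had 151 and 133 in the control and 123 and 133 with IFNγ, with arms that overlapped. The summed normalized counts of 4 Y-linked genes, which only the male feeders carry, were 1.07 to 3.29 in the control and 2.15 to 4.95 with IFNγ. The 3 leukocyte markers tested were all lower, Csf1r with 216 and 129 in the control and 37.6 and 26.7 with IFNγ, Cd68 with 2739.6 and 2348 in the control and 1144 and 1031 with IFNγ and Laptm5 with a log2 fold change of -0.63, while Tyrobp had 0 reads and Adgre1 and Lyz2 at most 4 reads in an arm. Of 4 endothelial markers tested 3 were lower, with Tie1 at -0.96, and the defining marker Emcn had 0 reads. Some of these genes are not particular to other cells. In ESCs Laptm5 had 1243 and 1306 normalized counts, Pecam1 1595 and 1899, Tek 717 and 666 and Cd68 261 and 245. Csf1r had at most 0.95 and Tie1 at most 8.84 in an ESC library. Of 7 neural precursor markers tested 2 were higher and 1 lower, and their summed counts were 5183 to 5263 in the control and 5223 to 5406 with IFNγ. Of the 6 with a control mean above the filter 1 was higher. Of 8 markers of SSEA1-bearing reprogramming cells, 4 were higher, Fut4 (1.01), Alpl (0.94), Sall4 (0.56) and Lin28a (0.32), and 3 lower, Epcam (-0.65), Cdh1 and Pou5f1. In bulk samples fewer cells of a type and less RNA per cell cannot be told apart, and the part of other cells in these changes was not tested.

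**Figure D4:**
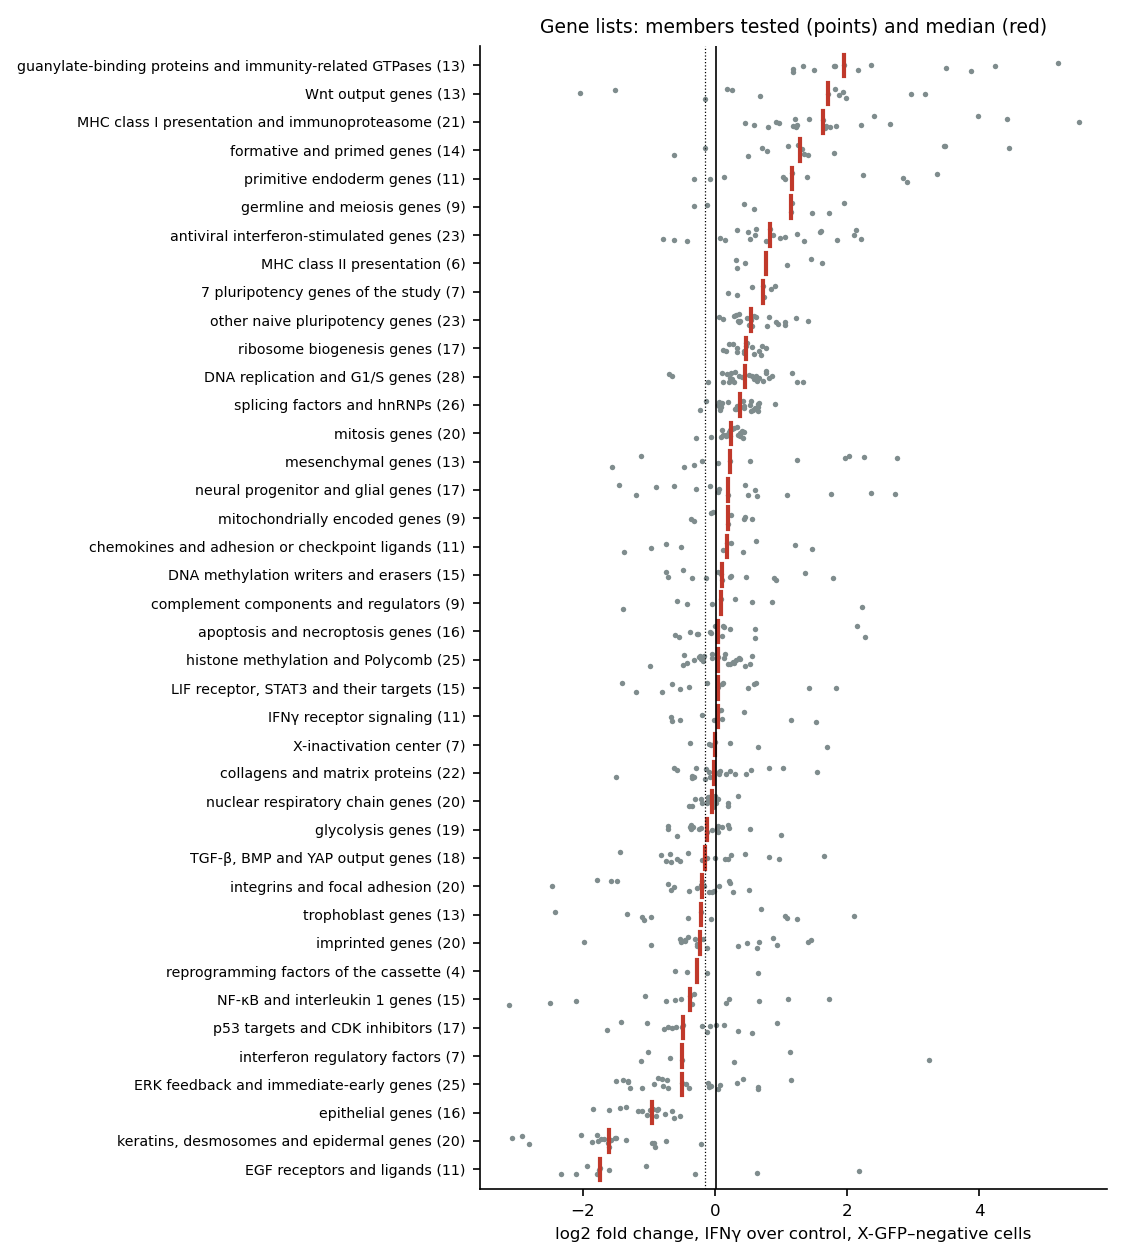
Log2 fold change of IFNγ over control in X-GFP–negative cells for the members tested (points) of each gene list, with the number tested in brackets and the list median in red. The solid line is the median of all genes (0.016) and the dotted line the position of zero after rescaling to equal totals, and the GTPase list (1.95) and the EGF list (-1.74) stand at the ends of the order.

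EGF receptor genes and their ligands were lower. Of 11 tested, a list in part chosen by the study, 9 were lower, 8 of them at least 2-fold, and 2 higher, with a median log2 fold change of -1.74. Of the 10 whose treated mean was above the filter 8 were lower. Egfr had 1608 and 1555 in the control and 442 and 473 with IFNγ normalized counts, a log2 fold change of -1.79 (SE 0.083, adjusted p = 1.04e-06). The ligand genes Btc, Ereg, Tgfa, Areg and Hbegf had -2.33, -2.10, -1.76, -1.74 and -1.60, and Errfi1, a feedback inhibitor, -1.95. Lrig3, which can bind EGF receptors, was higher at 2.18. Among 25 ERK feedback and immediate-early genes, in part chosen by the study, 15 were lower and 5 higher, with a median of -0.51. Fosl2, Dusp5 and Dusp1 had -1.50, -1.40 and -1.32, whereas the feedback genes Spry2 and Dusp6 were higher at 1.14 and 0.66.

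Inflammatory and cell cycle inhibitor genes were mostly lower. Of 15 NF-κB and interleukin 1 genes, in part chosen by the study, 10 were lower and 4 higher, with Il1a at -3.13, the prostaglandin synthase gene Ptgs2 at -2.11 and the inhibitor gene Nfkbie at 1.72. Of 17 p53 targets and CDK inhibitors 10 were lower and 2 higher, with a median of -0.49. Cdkn1a, which encodes p21, had 7128 and 6183 in the control and 2215 and 2045 with IFNγ normalized counts, a log2 fold change of -1.64 (SE 0.081, adjusted p = 1.35e-06). Cdkn2a and Cdkn2b, whose products are barriers to reprogramming, had -1.04 and -1.42, and Trp53 itself was higher at 0.95. Among 18 TGF-β, BMP and YAP output genes 4 were higher and 8 lower, with Tgfbi at 1.64 and Ltbp1 at -1.45.

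Genes of DNA replication were higher, in a list the study chose in part. Of 28 G1/S genes 22 were higher and 2 lower, with a median of 0.46, and 25 were higher with equal totals. Tyms, E2f1, Ccne1 and Mcm3 had log2 fold changes of 1.33, 1.24, 1.16 and 0.86, and Ccnd1 and Ccne2 were lower at -0.65 and -0.69. Of 20 mitosis genes 15 were higher and 1 lower, with a median of 0.25 against 0.016 over all genes. With equal totals 18 of them were higher and 0 lower, with a median of 0.40 against 0.17 over all genes. Of 17 ribosome biogenesis genes 16 were higher and 0 lower, with a median of 0.47, and of 26 splicing factors, in part chosen by the study, 18 were higher and 2 lower, with Srsf1 at 0.91. Glycolysis genes, in part chosen by the study, had no fixed direction, with 3 of 19 higher and 10 lower before rescaling and 8 higher and 7 lower with equal totals. The same holds for the 20 nuclear genes of the respiratory chain, with 3 higher and 6 lower before and 8 higher and 3 lower after rescaling.

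Pluripotency genes were moderately higher. Of the 7 naive genes that the study itself chose, whose direction is therefore not independent evidence, 6 were higher and 0 lower, with a median log2 fold change of 0.73. Zfp42, a naive marker also called Rex1, had 1356 and 1848 in the control and 2777 and 2917 with IFNγ normalized counts, a log2 fold change of 0.85 (SE 0.12, adjusted p = 0.000425). Nanog had 4542 and 4823 in the control and 6297 and 5569 with IFNγ, a log2 fold change of 0.34 (SE 0.073, adjusted p = 0.00377), and Dppa4 and Esrrb had 0.91 and 0.74. Of 23 other naive genes 21 were higher, 4 of them at least 2-fold, and 0 lower, with a median of 0.55, and Spic, Gdf3 and Nr0b1 had 1.22, 1.07 and 1.06. Of the factors in the cassette, Sox2 was higher at 0.65, Pou5f1 and Myc were lower at -0.42 and -0.61, and Klf4 had -0.13 (adjusted p = 0.23, limma).

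Of 15 genes of LIF signaling, in part chosen by the study, 5 were higher and 6 lower, with a median of 0.044. Over all genes 31.1% were higher and 30.8% lower. Lifr, the LIF receptor, had 1684 and 2012 in the control and 4749.8 and 5105 with IFNγ normalized counts, a log2 fold change of 1.42 (SE 0.089, adjusted p = 4.1e-06). Il6st, which encodes its partner gp130, had 2172 and 2172 in the control and 3256 and 3271 with IFNγ, a log2 fold change of 0.59 (SE 0.062, adjusted p = 6.27e-05). Stat3 had 4285 and 3953 in the control and 4557 and 4431 with IFNγ, a log2 fold change of 0.13 (SE 0.065, adjusted p = 0.126), and was called with equal totals, at 0.28 (adjusted p = 0.00407, limma). Osmr, the receptor of oncostatin M, and the STAT target Cish were lower at -1.20 and -1.41.

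Genes of DNA methylation, in part chosen by the study, were called in both directions, 7 of 15 higher and 5 lower. Over all genes 31.1% were higher and 30.8% lower. The counts of this list, and those of the histone methylation and imprinted lists below, do not set these lists apart from that. Dnmt3b, a de novo methyltransferase of the epiblast, had 1703 and 2211 in the control and 6058 and 7421 with IFNγ normalized counts, a log2 fold change of 1.79 (SE 0.13, adjusted p = 7.26e-06), and its cofactor Dnmt3l 1.36. Tet1, which oxidizes methylcytosine, had 3411 and 4014 in the control and 6283 and 7442 with IFNγ, a log2 fold change of 0.89 (SE 0.10, adjusted p = 8.15e-05), while Tet2 and Tet3 were lower at -0.71 and -0.35. Gadd45a had 1064 and 879.8 in the control and 1134 and 945 with IFNγ, a log2 fold change of 0.10 (SE 0.12, adjusted p = 0.505), with control and treated libraries that overlapped. Of 25 genes of histone methylation and Polycomb 10 were higher and 9 lower, between Ezh1 at -0.99 and Mtf2 at 0.57. Of 9 germline genes tested 5 were higher, all at least 2-fold, and 0 lower, with Dnd1 at 1.17 and Dazl at 1.47, and the other 7 genes of that list were below the filter. Of the 8 tested germline genes whose control mean was above the filter 4 were higher, where 31.1% of all genes were. Of 20 imprinted genes 7 were higher and 8 lower. Igf2, a paternally expressed growth factor, had 4113 and 4262 in the control and 999 and 1118 with IFNγ. Its log2 fold change was -1.99 (SE 0.076, limma adjusted p = 7.34e-07), while Mest and Nnat, also expressed from the paternal copy, had 1.45 and 1.40. In NPCs Mest had 47989 and 49436 normalized counts, Nnat 36490 and 29763 and Igf2 444 and 466.

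The remaining lists gave calls in both directions or few calls, where 31.1% of all genes were higher and 30.8% lower. Of 9 complement genes 2 were higher, Serping1 at 2.23 and Cd59a at 0.87, and 3 lower, Clu at -1.39, C1s1 and Cd55. Of 22 collagens and matrix proteins, in part chosen by the study, 6 were higher and 7 lower, between Col6a1 at -1.49 and Lama1 at 1.55. Of 17 neural progenitor and glial genes 4 were higher and 4 lower, among them Sox1 at 1.76 and Gfap at -1.46, and Pax6 had -0.29 (adjusted p = 0.347, limma). Of the 15 with a control mean above the filter 2 were higher, and of the 16 with a treated mean above it 3 were lower. Of 16 apoptosis and necroptosis genes 4 were higher, among them Mlkl, the effector of necroptosis, at 2.14, and 5 lower, among them Casp8 at -0.61. Of the 14 whose control mean was above the filter 2 were higher. Of the list of 2-cell-like genes Eif1a alone passed the filter, and it was higher at 0.21. Eif1a also had 2013 and 2094 normalized counts in NPCs, so its level is not particular to a 2-cell-like state. With equal totals the larger count changed side for the IFNγ receptor signaling list (5 higher, 3 lower), the LIF list (8 and 5), imprinted genes (8 and 4), matrix genes (9 and 6) and apoptosis genes (7 and 3). The counts also moved for neural genes (8 and 4), histone methylation genes (13 and 5), DNA methylation genes (9 and 3), p53 targets (5 and 9), chemokines (6 and 4), interferon regulatory factors (3 and 2), complement genes (3 and 3) and integrins (5 and 7).

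The other sorted populations of day 7, whose GFP was medium or high, served to test whether the IFNγ effect (the log2 fold change) differed in X-GFP–negative cells. Against X-GFP–medium cells it was larger (more positive) for 1307 of 15627 genes (8.36%) and smaller (more negative) for 1142 (7.31%). Against X-GFP–high cells it was larger for 2101 of 15764 genes (13.3%) and smaller for 1487 (9.43%). With equal totals these counts became 2863 (18.3%) and 400 (2.56%) against X-GFP–medium cells, and 4065 (25.8%) and 655 (4.16%) against X-GFP–high cells, so their split follows the scaling. A difference of at least 2-fold was called upward for 535 genes (3.42%) and downward for 91 (0.582%) against X-GFP–medium cells, and for 723 (4.59%) and 205 (1.3%) against X-GFP–high cells.

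Most MHC class I genes, and part of the GTPase, antiviral and interferon regulatory factor genes, had a larger effect in X-GFP–negative cells. Over all genes a larger effect was called for 8.36% against X-GFP–medium and 13.3% against X-GFP–high cells. Of 21 MHC class I genes 18 had a larger effect than in the medium population, 20 than in the high population and 0 a smaller one. Over the 20 of them tested in all 3 populations, the median log2 fold change was 1.65 in X-GFP–negative cells, 0.41 in the medium and 0.28 in the high population. Values are given in this order from here on, and medians are over the genes tested in all 3. For 10 GTPases the medians were 1.81, 0.93 and 0.63. The effect was larger for 6 of 12 genes against X-GFP–medium cells and for 10 of 12 against X-GFP–high cells. In the medium population alone 10 of the list passed the filter, and in the high population 10. Members that passed the filter of these tests only through the treated X-GFP–negative libraries had to lean that way. The counts therefore describe the 12 genes, and the same limit holds for the lists that follow. H2-Q7 reached 580 and 700.2 normalized counts with IFNγ in X-GFP–negative cells, 90.7 and 108 in X-GFP–medium cells and 46.8 and 55.5 in X-GFP–high cells, while its control libraries lay between 8.25 and 17.2 in all 3 populations. Its differences of log2 fold change were 2.73 (adjusted p = 0.00234, limma) and 3.50 (adjusted p = 0.00137, limma). Irf1 had log2 fold changes of 1.14, 0.67 and 0.32, with a larger effect in X-GFP–negative cells (adjusted p = 0.00946 and 0.00106, limma). A larger effect than in the medium and than in the high population was called for 9 of 23 and 11 of 24 antiviral genes, and for 3 of 7 interferon regulatory factors in both tests. It was called for 0 of 7 and 2 of 7 MHC class II genes, and for 1 of 11 and 2 of 11 chemokines and ligands. For the receptor signaling list it was called for 1 of 11 genes in both tests. These lists are short, and such counts do not set them apart from the shares over all genes. For Tgtp2 the difference was called against X-GFP–high cells (adjusted p = 0.0231, limma) and not against X-GFP–medium cells (adjusted p = 0.34, limma).

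Formative and primed genes differed between the populations too. Of 14 genes 8 had a larger effect than in the medium population and 12 than in the high population. The limit given for the GTPases holds here, as 12 passed the filter in the medium and 12 in the high population alone. The medians of 12 genes were 1.18, 0.16 and 0.057. T had 107 and 170.4 normalized counts in treated X-GFP–medium and 56.0 and 61.3 in treated X-GFP–high cells, against 2237 and 2620.1 in treated X-GFP–negative cells. Its log2 fold changes were 3.49, 1.77 and 0.90, with adjusted p = 0.00862 and 0.000261 for the differences (limma). Foxa2, an endoderm and node factor, changed direction between populations, and had 1549.9 and 2037 normalized counts in NPCs. It had 146 and 168 in the control and 364 and 477 with IFNγ in X-GFP–negative cells, a log2 fold change of 1.40 (SE 0.15, adjusted p = 8.15e-05). In X-GFP–medium cells it had 106 and 129 in the control and 32.5 and 80.5 with IFNγ, and its log2 fold change was -1.17, with adjusted p = 0.00858 for the difference (limma). For Sox17 the difference was called against X-GFP–high cells (adjusted p = 0.00256, limma) and not against X-GFP–medium cells (adjusted p = 0.416, limma). The 11 Wnt output genes tested in all 3 populations had medians of 0.68, 0.88 and 0.21, with larger effects for 4 of 13 genes against the medium and for 7 of 13 against the high population.

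Epidermal and epithelial genes had medians below zero in all 3 populations. The medians of 18 epidermal genes were -1.65, -2.16 and -2.17, and those of 16 epithelial genes -0.96, -1.04 and -1.12. Krt17 had -2.82, -3.03 and -2.97, Egfr -1.79, -2.02 and -1.66, and Dcn -4.01, -4.56 and -4.74. For these 3 genes the difference between X-GFP–negative and the other populations was not called (lowest adjusted p = 0.178, limma, for Dcn against X-GFP–medium cells), which does not show that the effects were equal. p53 targets and CDK inhibitors had a more negative effect in X-GFP–negative cells than in the medium population for 9 of 17 genes, with list medians of -0.49 and 0.032, but with equal totals for 3 of the 17, and a more negative effect than in the high population for 3 of 17. Of the G1/S genes 12 of 28, and of the mitosis genes 8 of 20, had a larger effect in X-GFP–negative than in X-GFP–high cells, and with equal totals 20 and 17. Against X-GFP–medium cells these counts were 2 and 0, and with equal totals 9 and 3. Vim had 2.26, 1.16 and 1.02 (adjusted p = 0.00468 and 0.000612, limma).

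Genes that separated ESCs from NPCs by a log2 fold change of at least 2 (limma adjusted p below 0.1) were counted in treated X-GFP–negative cells. Over all genes 31.1% were higher and 30.8% lower, and with equal totals 43.3% and 22.1%, so an excess of higher calls with equal totals is not particular to these sets. Of the 1601 genes tested that were higher in ESCs, 602 were higher and 524 lower, with a median log2 fold change of 0.11. Of the 2104 genes tested that were higher in NPCs, 856 were higher and 554 lower, with a median of 0.19. With equal totals the counts were 733 and 464 for the ESC genes, and 1014 and 446 for the NPC genes.

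Of 7 genes of the X-inactivation center tested, chosen by the study, 3 were higher and 1 lower, a share of calls near the 61.9% over all genes. Xist, the RNA that coats the inactive X chromosome, had 5946 and 6112 in the control and 4562 and 4715 with IFNγ normalized counts, a log2 fold change of -0.38 (SE 0.058, adjusted p = 0.000577). In X-GFP–medium cells it had 3569 and 3634 in the control and 1557 and 1643 with IFNγ, a log2 fold change of -1.17, and the effect differed from that in X-GFP–negative cells (adjusted p = 0.000549, limma). Tsix, its antisense partner, had 54.9 and 60.1 in the control and 87 and 95 with IFNγ, a log2 fold change of 0.65, but the strand setting of the counting is not given in the sources used here, so reads of the pair may be mixed. Ftx had 0.22 and Rlim had -0.10 (adjusted p = 0.151, limma).

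The share of reads from X mus was given for 316 X-linked genes, in 1 column for each population, so it has no replicate error and its depth is unknown. Its median over genes was 0.00896 in control and 0.0188 in treated X-GFP–negative cells, with 0.00107 in NPCs. At day 2 the median was 0.0212 without and 0.0164 with IFNγ, and at day 5 it was 0.0117 and 0.0125. In X-GFP–negative cells the share was higher with IFNγ for 195 genes, lower for 77 and equal for 44. Above a share of 0.1 lay 37 genes in the control and 38 with IFNγ. In ESCs the median was 0.481, and in the medium population it was 0.110 without and 0.236 with IFNγ. The study reports that treated X-GFP–negative cells did not reach a higher X mus proportion than their controls.

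By position, chromosome 8 stood below the other chromosomes. The median log2 fold change of its 828 genes tested in X-GFP–negative cells was -0.15, with 21.9% of them higher and 41.8% lower against 31.1% and 30.8% of all genes. The medians of the other autosomes lay between -0.049 and 0.074, and that of the X chromosome was 0.067. All pieces of 20 Mb along chromosome 8 had negative medians, from -0.20 to -0.094. Set against NPCs and the median over chromosomes, the level of chromosome 8 genes with a mean above 200 was -0.14 and -0.15 (log2) in the control and -0.29 and -0.34 in the treated X-GFP–negative libraries. In X-GFP–medium cells these values were -0.14 and -0.14 in the control and -0.47 and -0.39 with IFNγ, at day 5 -0.34 and -0.43 against -0.50 and -0.54, and in ESCs -0.015 and -0.035. The median log2 fold change of chromosome 8 was -0.016 at day 2, -0.14 at day 5, -0.22 in the medium and -0.21 in the high population. RNA levels do not give the number of copies of a chromosome, and the copy number of chromosome 8 in these cells was not tested.

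**Figure D5:**
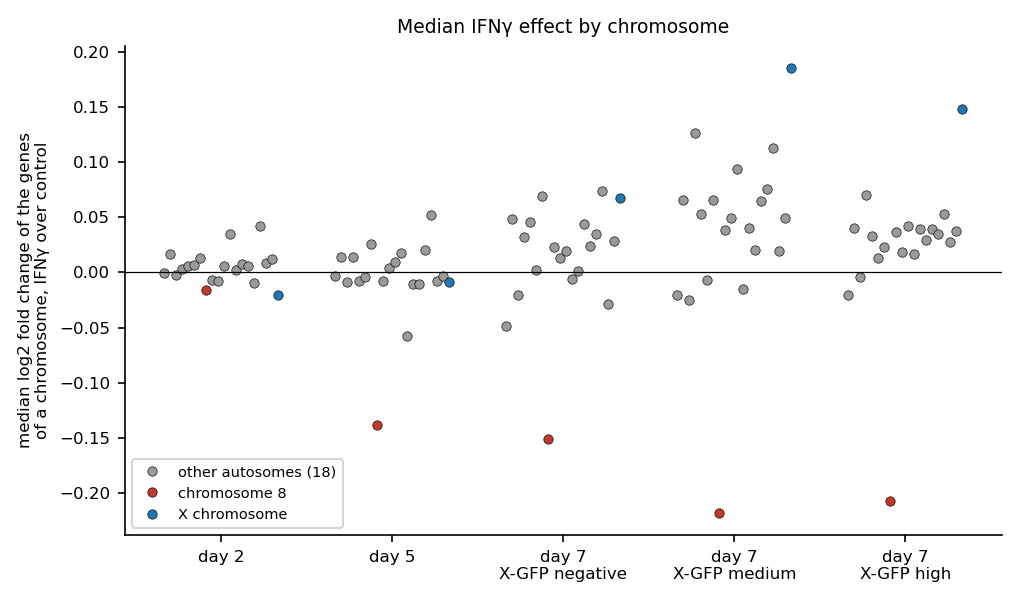
Median log2 fold change of IFNγ over control (vertical axis) over the genes tested on each chromosome, 1 point a chromosome, at day 2, day 5 and in the 3 day 7 populations, with chromosome 8 in red and the X chromosome in blue. Chromosome 8 lies below the other chromosomes from day 5 on, at -0.15 in X-GFP–negative cells.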

How the data were processed

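RNA-seq of day 7 X-GFP–negative cells was compared between 2 IFNγ-treated and 2 control libraries, which the study's methods call independent replicates. Rules, gene lists and the comparison were chosen with earlier results of these data known. The authors made stranded, rRNA-depleted libraries, aligned reads with STAR and WASP to mm10 masked at strain SNPs, counted them with HTSeq 0.6.1 and deposited a signal, the gene counts divided by DESeq2 size factors. The strand setting of the counting is not given in the sources used here. The authors also deposited the share of X mus reads per gene, 1 column a population.

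From these, whole reads were recovered (100.0% of values within 0.01 of a whole number), totaling 25966420 to 28683574 per library. Genes with a mean above 10 over the 4 libraries were tested on log2(normalized count + 1) by limma 3.58.1 (R 4.3.3, trend, two-sided), with Benjamini-Hochberg adjustment and a threshold of 0.1. A fold change on this scale understates that of low genes. Differences between populations were tested as interaction terms. edgeR 4.0.16 on recovered reads called 4778 genes higher and 4857 lower, and DESeq2 1.42.0 called 3669 and 4128. Alternatives were a pseudocount of 0.1, no filter, equal totals, all 24 libraries in 1 fit, a replicate block, those 2 tools and leaving out each library. Equal totals outside the mitochondrial genes were added after seeing the data. On simulated counts for this comparison (15412 genes), limma called 91.0% of genes changed by 0.5 (log2) and 100% of those changed by 1 or 2, and 10.6% of its calls were unchanged genes. For the interaction against X-GFP–medium cells (15533 genes) it called 40.3%, 95.5% and 100% at 0.5, 1 and 2, and 17.4% of its calls were unchanged genes. In both simulations the changes of 0.5, 1 and 2 were given to 67, 67 and 66 genes, up and down, all with a mean of at least 100. Far more genes were called in the data, many of them of lower mean, so these shares do not give the rates among the reported calls.

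Named genes were the 10 largest changes each way with a group mean of at least 100, up to 4 of the largest called members of each of 47 lists with that mean and the members a list turns on, 7 genes the study names, the 5 largest count differences each way, the 3 largest interactions of each sign against each population, and the 5 highest and 5 lowest of the day 2 list. Other members are examples chosen after their values were seen. Some genes counted in the lists are not reported here by name. Of the listed symbols 9 could not be matched. Gene positions come from GENCODE M21 (GRCm38) and promoters from RefSeq (GRCm38.p6). Counts of one gene may hold reads of a near-identical copy.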

Additional observations from a re-analysis of the deposited data

Results flagged for a closer look

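The effect of IFNγ differed between X-GFP–negative cells and another day 7 population, by the limma interaction test, for the genes counted in the report. It was larger in X-GFP–negative than in X-GFP–medium cells for 1307 genes and smaller for 1142, and larger than in X-GFP–high cells for 2101 genes and smaller for 1487.

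Among immune genes, H2-Q7 had a log2 fold change larger by 2.73 than in X-GFP–medium cells and by 3.50 than in X-GFP–high cells. Card14, which encodes a scaffold of NF-κB signaling in keratinocytes, had an effect that differed by -1.31 from that in the medium and by -2.01 from that in the high population. The protease inhibitor gene Serpinb6c had differences of -1.21 and -2.32.

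Slc44a5 had differences of 3.43 against X-GFP–medium and 4.98 against X-GFP–high cells, with 4 control reads in X-GFP–negative cells. Fndc3c1 had 3.02 and 2.79, and Asb4, a subunit of a ubiquitin ligase, 3.85 and 2.68. The difference of Samd3 was called against X-GFP–high cells, at 3.43, and no longer with edgeR, where it was 1.78 (adjusted p = 0.867), with DESeq2 (2.64, adjusted p = 0.491) or with a pseudocount of 0.1 (2.35, limma adjusted p = 0.406).

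Ace, which encodes the angiotensin-converting enzyme, had 443 and 439.9 in the control and 105 and 103 with IFNγ normalized counts in X-GFP–negative cells, with differences of -1.72 and -1.69. Rhov had -1.54 and -2.04, and AI481877 had -1.67 and -1.57. Without control replicate 1 of the X-GFP–negative cells the difference of AI481877 against X-GFP–medium cells was -1.32 (limma adjusted p = 0.152).

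Of the genes the study names, Lifr and Il6st had a larger effect in X-GFP–negative than in X-GFP–high cells, by 1.00 and 0.49. For Gadd45a the difference was -0.49, and it was -0.32 (limma adjusted p = 0.153) with equal totals.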

How the results depend on the processing

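Calls in X-GFP–negative cells, counted by direction, stayed within 1.5 times under every alternative run. Leaving out each library in turn gave 3718 to 4308 higher and 3898 to 4460 lower genes, 1096 to 1321 higher and 1025 to 1176 lower at least 2-fold, and 70 to 75 higher genes of the day 2 list. Equal totals outside the mitochondrial genes gave 6245 and 3723.

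The counts of differing effects moved more. Against X-GFP–medium cells the larger and smaller effects numbered 867 and 681 with no filter, 2863 and 400 with equal totals and 854 and 671 with DESeq2, and 629 were smaller with all 24 libraries in 1 fit. Against X-GFP–high cells they numbered 4065 and 655 with equal totals. Leaving out a library gave 591 to 1842 larger and 399 to 1421 smaller effects against X-GFP–medium cells, and 1219 to 2096 and 735 to 1432 against X-GFP–high cells. In X-GFP–negative cells, these fell by over 1.5 times without control replicate 1 (804 and 591 against X-GFP–medium, 1306 and 821 against X-GFP–high cells) and, against X-GFP–medium cells, without IFNγ replicate 2 (757 and 599). They did so too without X-GFP–medium control replicate 1 (616 and 433) or 2 (591 and 399), for smaller effects without X-GFP–medium IFNγ replicate 1 (678), and without X-GFP–high control replicate 2 (1219 and 735).

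Same-numbered libraries of the arms had deviations with a correlation of 0.187 over 15531 genes, and 2 pairs are too few to show that the numbers pair the libraries. The replicate block gave 5464 higher and 5333 lower genes, and 2119 larger and 2071 smaller effects against X-GFP–medium cells.

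With a day 2 limit of 1 in place of 2, 138 listed genes were higher. The mean X mus share was 0.0406 in the control and 0.0462 with IFNγ, and the treated median without genes above 0.2 in NPCs was 0.0165.

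Among named genes 2461 of the values under alternatives kept their direction and side of the threshold, 39 lost their call, 9 gained one and 11 changed sign, all of genes that were not called. Leaving out a library gave Gadd45a -0.040 to 0.23, Ifngr2 -0.12 to 0.20, Cxcl10 -0.27 to 0.50 and Pax6 -0.66 to 0.080. With equal totals Rlim had 0.059 (0.022 outside the mitochondrial genes), Klf4 0.028 and Col1a1 0.0078. Of the list counts 1056 stayed within 1.5 times and 72 did not. The causes of these differences were not tested. Depth limits genes of few reads, with 38.2% called at a mean of 10 to 30 and 71.3% at 3000 and above.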

Other observations

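The largest differences in normalized counts were those of very abundant RNAs. The 5 largest decreases in normalized counts were those of mt-Rnr2 and mt-Rnr1, the mitochondrial ribosomal RNAs, Malat1, a nuclear noncoding RNA, Rn7sk, which holds back transcription elongation, and the elongation factor gene Eef1a1. mt-Rnr2 had a log2 fold change of -0.32 (SE 0.11, adjusted p = 0.0313) and was not called with equal totals (limma adjusted p = 0.185). Malat1 had -0.60, mt-Rnr1 -0.36, Rn7sk -0.26 and Eef1a1 -0.20. The 5 largest increases in normalized counts were those of Peg10, an imprinted retrotransposon-derived gene (0.66), Trim28, a corepressor that silences retroviruses (0.74), the chaperone gene Hsp90ab1 (0.16), the tubulin gene Tubb5 (0.39) and mt-Nd1 (0.55). Of the 7 mitochondrial messenger RNAs tested, mt-Nd1, mt-Nd2 (0.45), mt-Cytb (0.44) and mt-Nd5 (0.20) were higher. The genes mt-Nd4 (0.24), mt-Nd6 (-0.034) and mt-Co1 (-0.062) were not called. Only 9 of the 15 mitochondrial genes listed passed the filter, and the others, all messenger RNAs, were not tested. Why their counts were so low was not tested.

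The sign of the changes varied with the level of a gene. The median log2 fold change was 0.21 among 1949 genes with a mean of 10 to 30, 0.15 among 2185 genes at 100 to 300 and -0.10 among 1936 genes at 3000 and above. The shift of 0.16 from rescaling adds to each of these values alike.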
